A study of Mus musculus with 20 samples.

Results

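Integrins are transmembrane receptors built from an alpha and a beta chain. They fix cells to laminins, fibronectin and other matrix proteins and pass signals through adaptor proteins to the actin or keratin cytoskeleton. In mammary epithelium, Itga6 and Itgb4 form the laminin receptor of hemidesmosomes, and Itgb6 pairs with Itgav in epithelial cells to activate latent TGF-beta, whereas Itga5, Itgav and Itgb3 chains bind fibronectin, vitronectin and other ligands that carry an RGD motif and are known from mesenchymal and migrating cells. The mRNA of 10 integrin subunits was followed here, chosen by gene name out of 26 integrin subunit genes. The data held 45706 gene identifiers, of which 45143 were found in GENCODE M21. Of these, 3 were taken as epithelial (Itga6, Itgb4, Itgb6), 4 as mesenchymal (Itga5, Itgav, Itgb1, Itgb3), and Itga3, Itga7 and Itgb8 were described one by one. Itgb1 pairs with many alpha chains in epithelial cells too, so its place among the mesenchymal members is a matter of the grouping. By GENCODE M21 (GRCm38), whole gene spans of the epithelial members were Itga6 (ENSMUSG00000027111) at chr2:71745616-71858416, Itgb4 (ENSMUSG00000020758) at chr11:115974709-116008412 and Itgb6 (ENSMUSG00000026971) at chr2:60598292-60722643. The mesenchymal members were Itga5 (ENSMUSG00000000555) at chr15:103344286-103366763, Itgav (ENSMUSG00000027087) at chr2:83724397-83806916, Itgb1 (ENSMUSG00000025809) at chr8:128685654-128733200 and Itgb3 (ENSMUSG00000020689) at chr11:104608000-104670476, and the others Itga3 (ENSMUSG00000001507) at chr11:95044474-95076801, Itga7 (ENSMUSG00000025348) at chr10:128933818-128958282 and Itgb8 (ENSMUSG00000025321) at chr12:119158022-119238802.

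The study removed the lysosomal aspartic protease cathepsin D (Ctsd) from breast cancer cells of the PyMT mouse, in which polyoma middle T antigen is driven by the mouse mammary tumor virus (MMTV) promoter. Tumors came from 4 control mice (wild type by the labels, whereas the methods class mice with floxed but undeleted Ctsd alleles as controls too) and 4 MMTV-cre;Ctsd-/- mice at 18 weeks of age, all on a C57BL/6N background. The Cre was driven by the MMTV promoter as well, so the deletion is in epithelium and the tumor stroma keeps Ctsd. PyMT cells were primary tumor cells that had become immortal on their own, from 1 Ctsd+/+ mouse and 1 MMTV-cre;Ctsd-/- mouse, so genotype and line cannot be told apart. Both lines were kept in a mild starvation medium with 1% FCS, for 10 days in the groups named 1% FCS and for 12 weeks in those named 1% FCS LT, which gives 4 cell groups of 3 replicates. Replicates of a genotype therefore share an animal, and their spread covers culture and library only.

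Tumor libraries held 49725437 to 64291587 counts on genes and cell libraries 33622831 to 40239762. All 10 subunits passed the filter on low counts in both materials, where 18617 and 15178 genes were tested. Levels are given as CPM, the counts of a gene scaled to a common library size within each material, and, where genes are compared with each other, as CPM per kb of exon. Ctsd itself was at 1781 to 2617 CPM in control and 360.2 to 1295 CPM in Ctsd-/- tumors, at 1267 to 4199 CPM in Ctsd+/+ cells and at 114 to 192 CPM in Ctsd-/- cells. The 1% FCS Ctsd+/+ libraries stood apart from the other cells. The summed CPM of 10 mesenchymal markers was 3779 to 4238 in them and 76.5 to 978 in the other 3 cell groups, that of 7 fibroblast markers 1178 to 3310 against 3.05 to 99.8, and that of 12 epithelial markers 1273 to 2709 against 8880 to 17206. All 12 epithelial markers were above 3 counts in every cell group. Of the fibroblast markers, Col1a1 (530.7 to 2320 CPM) and Pdgfrb (159.7 to 694 CPM) carried the sum in these 3 libraries, Col1a2 reached no more than 3.69 CPM, and Lum had at most 3 counts in every cell library. The part of these cells in the integrin differences was not tested. In bulk RNA, fewer cells of a type and less RNA per cell cannot be told apart.

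Promoter sequences, credited to RefSeq (GRCm38.p6), matched 6 of the 10 genes with 8 start sites. They are shown for members that moved in opposite directions in the cells, Itga5 and Itgav on one side and Itgb6 on the other. Each run is the 250 bases before the start, 5′ to 3′ on the strand of the gene, in lower case, with matches to CAGGTG (an E-box that Snail and Zeb repressors are known to bind), TGACGTCA (a cAMP response element), TGANTCA (of the AP-1 type), GGAATG (of the TEAD type) or GGGCGG (a GC box) on either strand in capitals.
Itga5 (chr15:103366792-103367041, minus strand): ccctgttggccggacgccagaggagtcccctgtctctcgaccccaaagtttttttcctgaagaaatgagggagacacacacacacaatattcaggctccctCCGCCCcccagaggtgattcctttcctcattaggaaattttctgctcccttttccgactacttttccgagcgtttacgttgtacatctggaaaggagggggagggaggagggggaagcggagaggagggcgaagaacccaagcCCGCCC
Itgav (chr2:83724147-83724396, plus strand): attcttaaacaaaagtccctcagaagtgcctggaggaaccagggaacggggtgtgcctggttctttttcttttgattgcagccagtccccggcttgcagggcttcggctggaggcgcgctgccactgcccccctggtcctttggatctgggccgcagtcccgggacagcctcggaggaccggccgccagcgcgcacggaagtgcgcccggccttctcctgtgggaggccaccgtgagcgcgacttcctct
Itgb6, inner start (chr2:60673694-60673943, minus strand): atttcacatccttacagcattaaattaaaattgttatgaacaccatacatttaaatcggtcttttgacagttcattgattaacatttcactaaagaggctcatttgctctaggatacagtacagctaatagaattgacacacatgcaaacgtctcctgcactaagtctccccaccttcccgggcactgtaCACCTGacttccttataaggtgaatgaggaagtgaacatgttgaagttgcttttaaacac
Itgb6, outer start (chr2:60722604-60722853, minus strand): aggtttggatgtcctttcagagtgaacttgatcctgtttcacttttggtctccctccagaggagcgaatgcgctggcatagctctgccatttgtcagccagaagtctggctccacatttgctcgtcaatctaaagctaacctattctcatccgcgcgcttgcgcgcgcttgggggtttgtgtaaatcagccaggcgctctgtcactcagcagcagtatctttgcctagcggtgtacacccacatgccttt
The capitals mark 2 GC boxes before Itga5, at 149 and 6 bases from the start, and an E-box at 60 bases before the inner start of Itgb6. Windows of Itgav and of the outer Itgb6 start held none of the 5 motifs. Over 32851 promoter windows of the same length, CAGGTG was in 17.2%, TGACGTCA in 1.55%, TGANTCA in 6.75%, GGAATG in 12.6% and GGGCGG in 32.7%. Among the other members, Itgb8 had an E-box at 62 bases before its start and Itga3 one at 195 bases before its outer start, GC boxes stood before Itga3 and Itgb1, and GGAATG stood 7 bases before the start of Itgb1. These matches are a description of the letters only.

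Per length of exon, Itgb1 and Itga3 (the alpha chain of the epithelial laminin-332 receptor) were the most abundant members in 3 of the 4 cell groups. In 1% FCS Ctsd+/+ cells the order of mean CPM per kb was Itgb1 (462), Itga3 (271), Itga5 (136), Itgb4 (86.7), Itgav (39.1), Itga6 (15.4), Itga7 (14.3), Itgb3 (3.69), Itgb8 (2.91) and Itgb6 (1.16), with overlapping replicates between Itga5 and Itgb4, Itga6 and Itga7, and Itgb3 and Itgb8. In 1% FCS Ctsd-/- cells Itga3 (564) and Itgb1 (499) overlapped at the top, Itgb4 (106) and Itga6 (49.3) came next, and Itgb3 (0.238) was last. The 1% FCS LT Ctsd+/+ cells were the exception at the top. In them Itgb4 (319), Itgb1 (286) and Itga3 (253) overlapped in sequence, and Itga6 (25.7) and Itga5 (23.0) followed. In 1% FCS LT Ctsd-/- cells the order of the leading 7 members was that of 1% FCS Ctsd-/- cells, with Itga3 at 518, Itgb1 at 363 and Itgb4 at 112 CPM per kb. In tumors, which were counted and scaled separately from the cells, Itgb1 led in both groups (64.8 and 59.0), Itga6 was second (20.02 and 18.6, overlapping Itgb4 in control tumors), and the lowest were Itga7 in control (0.630) and Itgb8 in Ctsd-/- tumors (1.43). The plot of mean levels per exon length shows these orders beside each other.

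**Figure D1:**
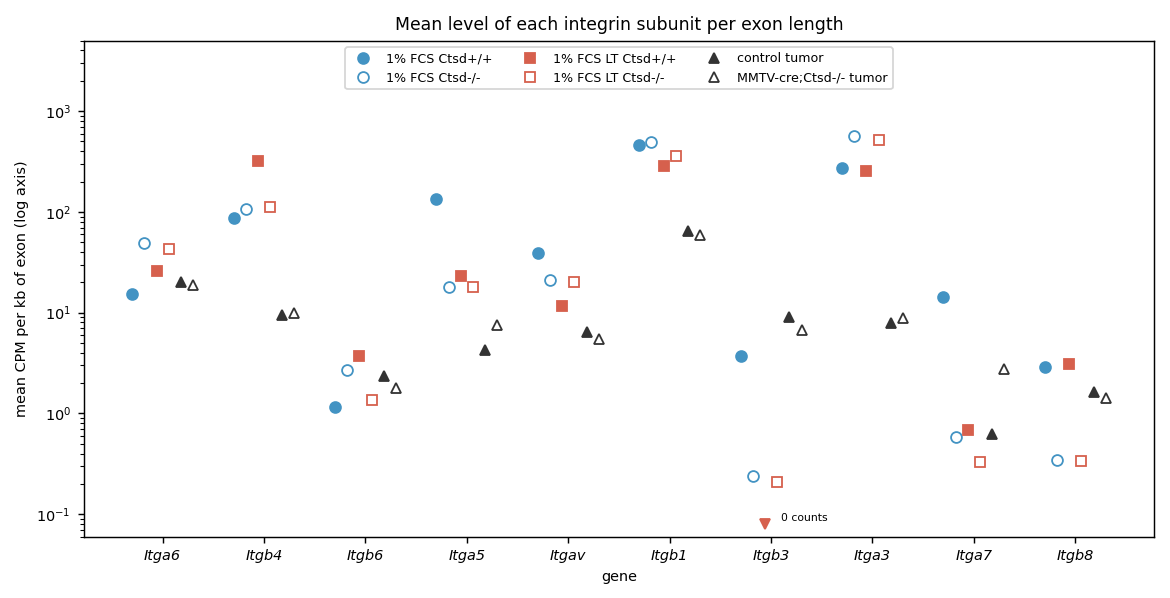
Mean CPM per kb of exon (log axis) of each integrin subunit in the 4 groups of PyMT cells and the 2 groups of tumors, with filled symbols for Ctsd+/+ or control and open symbols for Ctsd-/-. Itgb1 and Itga3 lie highest in 3 of the 4 cell groups, Itgb4 has the highest mean (319) in 1% FCS LT Ctsd+/+ cells, and Itgb3 had 0 counts in that group (filled arrowhead at the foot of the axis).

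Among the epithelial members, Itgb4, whose long cytoplasmic tail links hemidesmosomes to keratin filaments, was highest in Ctsd+/+ cells after long-term starvation. Its CPM was 732, 513 and 579 in 1% FCS Ctsd+/+, 694, 729.6 and 814 in 1% FCS Ctsd-/-, 2255, 1996 and 2467 in 1% FCS LT Ctsd+/+, and 852.5, 805 and 701 in 1% FCS LT Ctsd-/- replicates. The 3 long-term Ctsd+/+ samples stood above all others, and the other 3 groups overlapped in sequence. In Ctsd+/+ cells Itgb4 rose by 1.88 ± 0.15 on the log2 scale from 1% FCS to 1% FCS LT (± SE, adjusted p = 2.69e-06, edgeR's quasi-likelihood test, Benjamini-Hochberg over every gene in the fit, as for each adjusted p below). Ctsd-/- cells gave 0.08 ± 0.15 for the same step (adjusted p = 0.841). Between genotypes, Itgb4 gave 0.29 ± 0.15 (Ctsd-/- minus Ctsd+/+) in 1% FCS (adjusted p = 0.126) and was lower in Ctsd-/- cells by 1.51 ± 0.15 log2 units in 1% FCS LT (log2 difference -1.51, adjusted p = 1.73e-05). Without the first 1% FCS Ctsd+/+ replicate the 1% FCS difference was 0.45 (adjusted p = 0.0233).

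Itga6, the alpha partner of Itgb4, did not follow it between genotypes. Its CPM was 184, 117 and 116 in 1% FCS Ctsd+/+, 350.2, 472 and 513 in 1% FCS Ctsd-/-, 262, 188 and 247 in 1% FCS LT Ctsd+/+, and 415, 382 and 353 in 1% FCS LT Ctsd-/- replicates. Both Ctsd-/- groups lay above both Ctsd+/+ groups without overlap. Itga6 was higher in Ctsd-/- cells by 1.68 ± 0.21 in 1% FCS (adjusted p = 4.97e-05) and by 0.72 ± 0.20 in 1% FCS LT (adjusted p = 0.0143). The second value was 0.59 to 0.82 over 6 omissions of a replicate. Only its call rests on 1 library, since without the second 1% FCS LT Ctsd+/+ replicate it was 0.59 (adjusted p = 0.0641). Within Ctsd+/+ cells Itga6 rose by 0.74 ± 0.20 with long-term starvation (adjusted p = 0.0108), and in Ctsd-/- cells the step was -0.21 ± 0.20 (adjusted p = 0.629).

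Itgb6, the epithelial partner of Itgav, had low counts in all cells. Its CPM was 9.66, 5.47 and 9.60 in 1% FCS Ctsd+/+, 22.2, 17.6 and 17.2 in 1% FCS Ctsd-/-, 27.8, 24.5 and 26.4 in 1% FCS LT Ctsd+/+, and 7.49, 10.1 and 11.7 in 1% FCS LT Ctsd-/- replicates. The high and the low genotype changed places between short-term and long-term starvation, and the genotypes did not overlap at either time. Itgb6 was higher in Ctsd-/- cells by 1.20 ± 0.23 in 1% FCS (adjusted p = 0.000999) and lower in 1% FCS LT (log2 difference -1.43 ± 0.23, adjusted p = 0.000412). It rose by 1.67 ± 0.23 with time in Ctsd+/+ cells (adjusted p = 0.000116). It was the only member with an adjusted p below 0.05 for the step in Ctsd-/- cells (-0.96 ± 0.22, adjusted p = 0.049), a call that was lost in 5 of 6 omissions of a replicate (adjusted p = 0.118 to 0.154).

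Of the mesenchymal members, Itgb3, the beta chain of the vitronectin receptor, had the widest range in cells. Its CPM was 19.1, 33.7 and 12.4 in 1% FCS Ctsd+/+, 1.12, 1.70 and 1.39 in 1% FCS Ctsd-/-, 0 in all 3 replicates of 1% FCS LT Ctsd+/+, and 2.15, 0.798 and 0.774 in 1% FCS LT Ctsd-/-. Only the 1% FCS Ctsd+/+ samples were above 10 CPM, and a count of 0 in the smallest long-term Ctsd+/+ library allows up to 0.0811 CPM (3 counts, counting error only). In 1% FCS, Itgb3 was lower in Ctsd-/- cells (log2 difference -3.95 ± 0.50, adjusted p = 0.000139). Against the floor of 3 counts, the mean was at least 15.3-fold higher in Ctsd-/- than in Ctsd+/+ cells in 1% FCS LT (adjusted p = 0.000263), and at least 268-fold lower in Ctsd+/+ cells in 1% FCS LT than in 1% FCS (adjusted p = 5.93e-06). The first of these bounds was 9.70-fold without the first 1% FCS LT Ctsd-/- replicate, and the second was 195-fold to 326-fold when a 1% FCS Ctsd+/+ replicate was left out. The fitted log2 values of these comparisons depend on the prior count and are no bound. In the 1% FCS LT Ctsd-/- replicates, the highest Itgb3 value (2.15 CPM) was in the library with the highest summed mesenchymal markers (978 CPM, with 631 and 78.3 in the other two), and the part of this spread was not tested.

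Itga5, the alpha chain of the classical fibronectin receptor, was high in 1% FCS Ctsd+/+ cells alone, with 274, 1029 and 708 CPM. In the other groups its CPM was 89.1, 94.7 and 81.4 (1% FCS Ctsd-/-), 91.8, 88.7 and 159.5 (1% FCS LT Ctsd+/+) and 85.1, 92.0 and 90.9 (1% FCS LT Ctsd-/-), so that these 3 groups overlapped. In 1% FCS the log2 difference was -2.92 ± 0.39 (adjusted p = 8.84e-05) and in 1% FCS LT -0.34 ± 0.37 (adjusted p = 0.488). In Ctsd+/+ cells Itga5 fell by 2.56 ± 0.39 log2 units with time (log2 difference -2.56, adjusted p = 0.000231), and in Ctsd-/- cells the step was 0.01 ± 0.37 (adjusted p = 0.994).

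Itgav, the alpha chain shared by several RGD receptors, had the smallest SE of the 10 members. Its CPM was 448, 461 and 350.4 in 1% FCS Ctsd+/+, 234, 214 and 228 in 1% FCS Ctsd-/-, 126, 117 and 133 in 1% FCS LT Ctsd+/+, and 209.9, 237 and 203 in 1% FCS LT Ctsd-/- replicates. The Ctsd-/- groups overlapped each other and lay between the Ctsd+/+ groups, with no overlap on either side. The genotype difference turned from -0.90 ± 0.12 in 1% FCS (adjusted p = 7.09e-05) to 0.79 ± 0.12 in 1% FCS LT (adjusted p = 0.000256). In Ctsd+/+ cells the step with time was -1.75 ± 0.12 (adjusted p = 7.83e-07), against -0.06 ± 0.12 in Ctsd-/- cells (adjusted p = 0.852).

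Itgb1, the beta chain shared by most alpha chains in these cells, passed the test in 1 of the 5 comparisons of cells. Its CPM was 1664, 2499 and 1489.6 in 1% FCS Ctsd+/+, 2067, 2137 and 1904 in 1% FCS Ctsd-/-, 1275, 1005 and 1225 in 1% FCS LT Ctsd+/+, and 1263, 1591 and 1586 in 1% FCS LT Ctsd-/- replicates. Neither genotype difference passed the test, with 0.11 ± 0.19 in 1% FCS (adjusted p = 0.652) and 0.34 ± 0.19 in 1% FCS LT (adjusted p = 0.177). It fell with time in Ctsd+/+ cells (-0.69 ± 0.19, adjusted p = 0.011), although without the second 1% FCS LT Ctsd+/+ replicate the value was -0.59 (adjusted p = 0.0505). In Ctsd-/- cells the step was -0.46 ± 0.19 (adjusted p = 0.23), with the 3 long-term samples below the 3 short-term samples.

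Itga3 and Itgb8 differed between the genotypes in the same direction at both times. Itga3 was at 1305, 1903 and 1431 CPM in 1% FCS Ctsd+/+, 1571, 1112 and 1650.1 in 1% FCS LT Ctsd+/+, 2989, 3185 and 3479 in 1% FCS Ctsd-/-, and 2739.9, 2931 and 3201 in 1% FCS LT Ctsd-/- replicates. All 6 Ctsd-/- samples lay above all 6 Ctsd+/+ samples, by 1.06 ± 0.18 log2 units in 1% FCS (adjusted p = 0.000574) and 1.03 ± 0.18 in 1% FCS LT (adjusted p = 0.000903). Itgb8, which pairs with Itgav and also activates latent TGF-beta, went the other way. Its CPM was 46.9, 33.6 and 16.2 in 1% FCS Ctsd+/+, 37.9, 34.4 and 31.5 in 1% FCS LT Ctsd+/+, 6.16, 2.41 and 2.96 in 1% FCS Ctsd-/-, and 6.20, 2.32 and 2.76 in 1% FCS LT Ctsd-/- replicates. Again the genotypes did not overlap, and the log2 differences were -3.06 ± 0.48 (adjusted p = 0.000275) and -3.20 ± 0.48 (adjusted p = 0.000288). Neither gene passed the test for a step with time in either genotype.

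Itga7, a laminin receptor chain best known from skeletal muscle, was like Itga5 highest in 1% FCS Ctsd+/+ cells, but its CPM was lower than that of Itga5 in every cell group. Its CPM was 97.7, 145 and 105 in 1% FCS Ctsd+/+, 4.45, 5.50 and 4.35 in 1% FCS Ctsd-/-, 8.05, 4.64 and 4.08 in 1% FCS LT Ctsd+/+, and 2.37, 2.83 and 2.81 in 1% FCS LT Ctsd-/- replicates. The 3 samples of 1% FCS Ctsd+/+ lay far above the rest. The genotype difference was -4.60 ± 0.27 in 1% FCS (adjusted p = 2.06e-07) and -1.06 ± 0.25 in 1% FCS LT (adjusted p = 0.00516), and in Ctsd+/+ cells Itga7 fell with time (-4.37 ± 0.26, adjusted p = 3.11e-07). The long-term value rests on the strand of the reads. The gene Mettl7b overlaps Itga7 on the opposite strand and had 634 to 1501 counts in Ctsd-/- and 17 to 88 in Ctsd+/+ libraries, and reads on the other strand of Itga7 numbered 89 to 240 in Ctsd-/- against 2 to 12 in Ctsd+/+ libraries. With counts taken regardless of strand, the 1% FCS LT difference was 0.13 (adjusted p = 0.756).

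**Figure D2:**
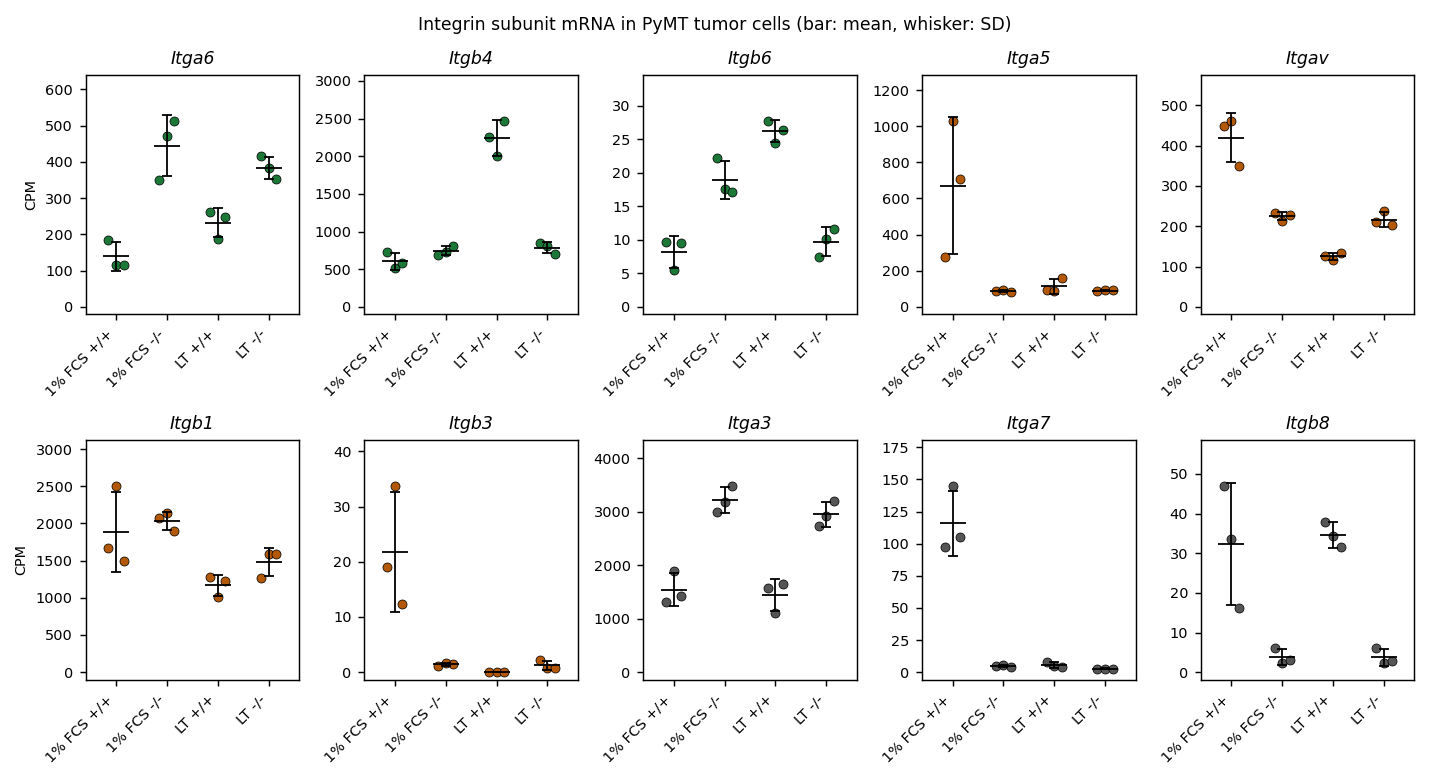
CPM of each integrin subunit in the 12 libraries of PyMT cells (points), with the mean (bar) and SD (whisker) of each group of 3; y axes are linear and differ between genes. Green marks epithelial, orange mesenchymal and grey the other members, and the 1% FCS Ctsd+/+ points are highest for Itga5, Itgav, Itgb3 and Itga7 while the 1% FCS LT Ctsd+/+ points are highest for Itgb4 and Itgb6.

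Over the 10 subunits, 3 were higher and 5 lower in Ctsd-/- than in Ctsd+/+ cells in 1% FCS, beside 48.5% of all genes tested that passed in either direction (23.5% higher, 25.1% lower). In 1% FCS LT 4 were higher and 4 lower, beside 39.6% of all genes (20.5% higher, 19.1% lower). With time in Ctsd+/+ cells 3 rose and 5 fell, beside 46.4% of all genes (23% and 23.4%). In Ctsd-/- cells 0 rose and 1 fell by edgeR, beside 2.38% of all genes (1.57% and 0.81%). By limma-voom 0 rose and 1 fell, beside 182 and 121 of 15178 genes. By DESeq2 0 rose and 2 fell, beside 664 and 413 of 15178 genes. At an unadjusted p of 0.05 by edgeR 0 rose and 3 fell, and the share of all genes at that p was not taken. Thus 8 of 10 members passed in 3 of the comparisons, where passing was common among all genes. The CPM of the groups did not overlap for 8 members in each of these 3 comparisons, beside 55.2%, 54.2% and 53.7% of all genes, and for 3 members with time in Ctsd-/- cells, beside 25.4%. Median log2 differences of the members were -0.39, -0.0013, -0.39 and -0.15 in this order, against 0.00025, 0.014, 0.0045 and -0.0014 over all genes.

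The design allows the genotype difference in 1% FCS LT to be set against that in 1% FCS, which is the test of whether it differs between the times. By this corrected comparison the genotype difference (Ctsd-/- minus Ctsd+/+) was higher in 1% FCS LT than in 1% FCS for 4 members (Itga5, Itga7, Itgav, Itgb3). It was lower for 3 (Itga6, Itgb4, Itgb6), beside 30.3% of all genes that passed (16.1% higher, 14.1% lower). Higher and lower refer here to this difference, not to the level in long-term cells. The direction followed the grouping for all 3 epithelial members and for 3 of 4 mesenchymal members. The members were chosen with earlier results of these data known, and their values share the same cell groups. This is therefore a description and no test of the grouping. The difference of the differences was -2.63 ± 0.32 for Itgb6 (adjusted p = 0.000108), -1.80 ± 0.21 for Itgb4 (adjusted p = 9.06e-05) and -0.95 ± 0.29 for Itga6 (adjusted p = 0.0261). It was 2.58 ± 0.52 for Itga5 (adjusted p = 0.00326), 1.69 ± 0.17 for Itgav (adjusted p = 2.59e-05), 3.54 ± 0.35 for Itga7 (adjusted p = 2.73e-05) and at least 7.89 for Itgb3 (at least 238-fold, adjusted p = 4.78e-05, and at least 150.4-fold without the first 1% FCS LT Ctsd-/- replicate). Itgb1 (0.23 ± 0.27, adjusted p = 0.56), Itga3 (-0.02 ± 0.26, adjusted p = 0.961) and Itgb8 (-0.14 ± 0.63, adjusted p = 0.898) did not pass. The call for Itga6 was lost in 8 of 12 omissions of a replicate (adjusted p = 0.052 to 0.0684). All 12 epithelial markers were lower and 8 of 10 mesenchymal markers higher in the same comparison. In each of the 7 members the step with time was larger in Ctsd+/+ than in Ctsd-/- cells, where only Itgb6 passed the test.

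**Figure D3:**
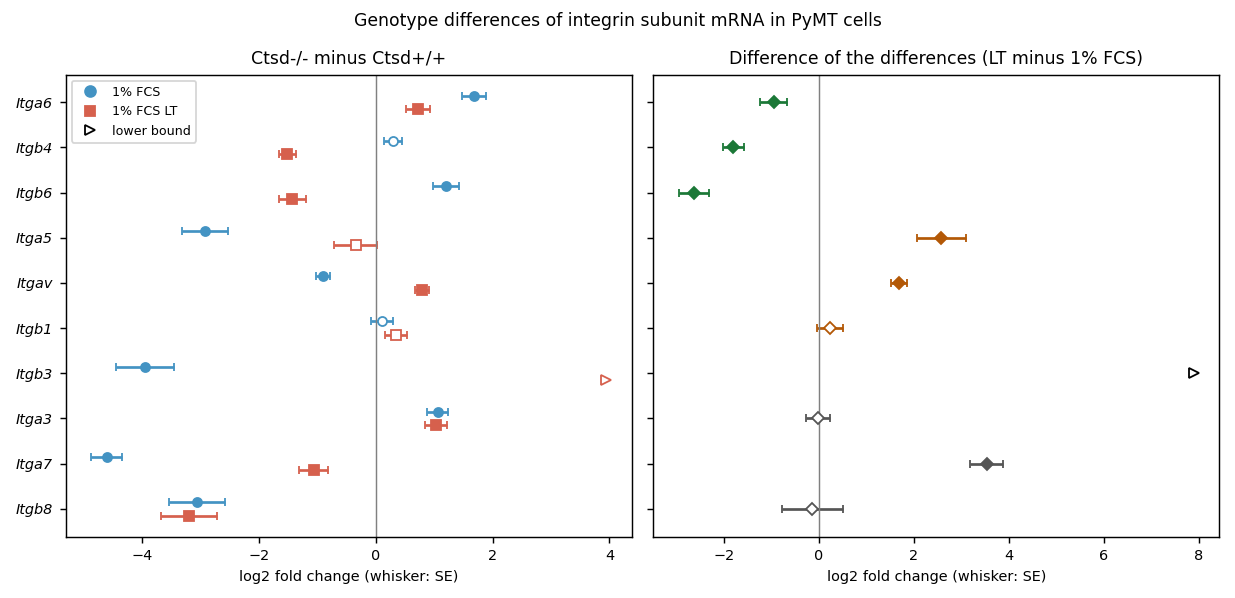
Log2 difference between Ctsd-/- and Ctsd+/+ PyMT cells (left) in 1% FCS (circles) and 1% FCS LT (squares), and the difference of these differences (right), with SE as whiskers and filled symbols where the adjusted p was below 0.05. Triangles are the lower bounds of Itgb3, 3.94 and 7.89, because its 1% FCS LT Ctsd+/+ libraries had 0 counts. They are drawn open although both comparisons passed by edgeR (adjusted p = 0.000263 and 4.78e-05). Itga3 and Itgb8 keep their place at both times.

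Ratios within a library do not depend on its scaling. Per length of exon, Itgb4 stood to Itgb1 as 0.256, 0.119 and 0.226 in 1% FCS Ctsd+/+, as 0.195, 0.199 and 0.249 in 1% FCS Ctsd-/-, as 1.03, 1.16 and 1.17 in 1% FCS LT Ctsd+/+, and as 0.393, 0.294 and 0.257 in 1% FCS LT Ctsd-/- replicates. Thus the hemidesmosome beta chain reached the level of Itgb1 mRNA only in long-term Ctsd+/+ cells. Itgb4 also exceeded its partner Itga6 in every cell group, by ratios of 5.11 to 6.41, 1.99 to 2.55, 11.1 to 13.7 and 2.56 to 2.71 in the same order, and it was at 0.323 to 0.696 of Itga6 in tumors. The ratio of Itga5 to Itga6 was 2.72, 16.1 and 11.1 in 1% FCS Ctsd+/+, and between 0.290 and 1.18 in the other cell groups. The ratio of Itgb6 to Itgav had its lowest values in 1% FCS Ctsd+/+ (0.0179 to 0.0414) and its highest in 1% FCS LT Ctsd+/+ cells (0.301 to 0.334), with Ctsd-/- cells between at 0.114 to 0.144 in 1% FCS and 0.0539 to 0.0866 in 1% FCS LT. Among the beta chains that pair with Itgav apart from Itgb1, Itgb5 made up 95.3% to 98.5% of the summed CPM per kb in cells, and 48.8% to 77.1% in tumors. Itgb3 was 14.5% to 37.8% of that sum in tumors and no more than 1.49% in cells.

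**Figure D4:**
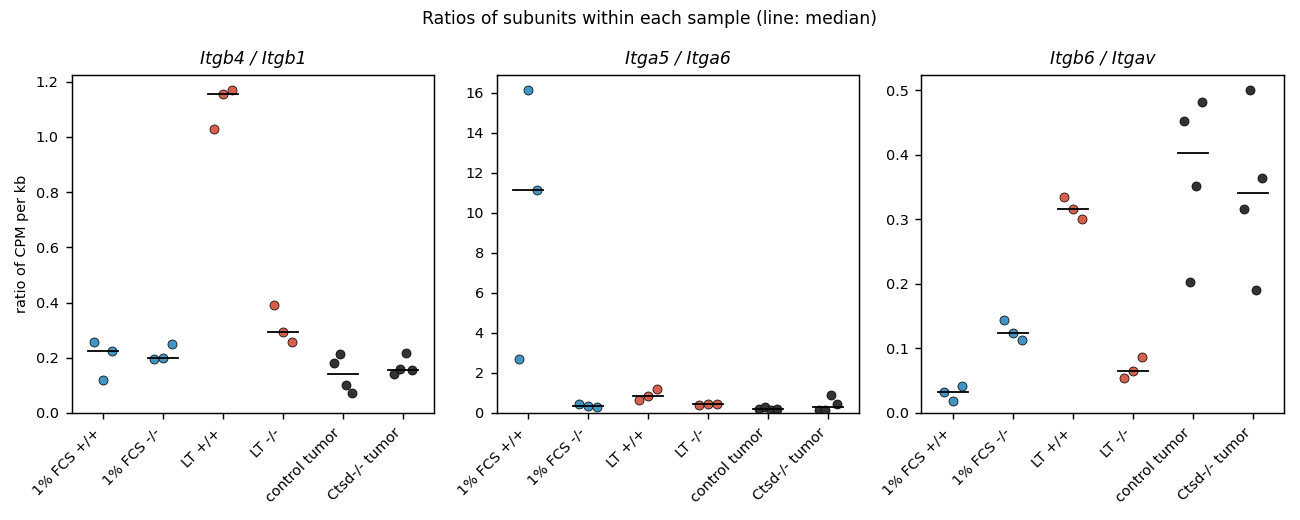
Ratio of CPM per kb within each library for Itgb4 to Itgb1 (left), Itga5 to Itga6 (middle) and Itgb6 to Itgav (right) in the 4 cell groups and 2 tumor groups, with the median as a line; y axes are linear and start at 0. The 1% FCS LT Ctsd+/+ cells lie at 1.03 to 1.17 for Itgb4 to Itgb1, and the 1% FCS Ctsd+/+ cells at 2.72 to 16.1 for Itga5 to Itga6.

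Across the 12 cell libraries, Itgav and Itgb3 were the most similar pair among the members (Pearson r of log2 CPM 0.98), followed by Itga5 and Itga7 (0.92), and the most opposed pairs were Itga3 and Itgb8 (-0.92), Itgb3 and Itgb4 (-0.90), Itga5 and Itga6 (-0.86) and Itgav and Itgb4 (-0.86). These libraries share 4 groups and 2 lines, so r mainly repeats the group means. Of 10560 other genes, those with the most similar profile were Phldb1 and Abl1 for Itgb3 (0.99 each), Bdnf for Itgav (0.99), Snx30 for both Itga5 (0.96) and Itga7 (0.98), Tspan14 for Itgb4 (0.98), Tmc4 for Itgb6 (0.95), Ptpn6 for Itga6 (0.96), Senp6 for Itgb1 (0.97), Fut4 for Itga3 (0.98) and Timp3 for Itgb8 (0.99).

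Ligands and partners of these receptors were counted in the same corrected comparison, again by the genotype difference in 1% FCS LT against that in 1% FCS. In it 16.1% of all genes were higher and 14.1% lower. Of 20 tested RGD ligands and genes of latent TGF-beta, 11 were higher and 1 lower, with a median log2 difference of 1.61. Ltbp2, a latent TGF-beta binding protein, was at 1812, 3571 and 946 CPM in 1% FCS Ctsd+/+ and 28.8, 13.2 and 9.43 CPM in 1% FCS LT Ctsd+/+, against 558, 226 and 267 and then 426, 649 and 252 CPM in Ctsd-/- cells (7.28 ± 0.86, adjusted p = 8.51e-05). Nid1, a laminin-binding basement membrane protein, was at 506 to 717 CPM in 1% FCS Ctsd+/+ and at most 3.65 CPM in the other cells (adjusted p = 0.000781), and Lrrc32, which holds latent TGF-beta at the cell surface, at 6.75 to 20.3 CPM in the former and at most 0.194 CPM in the latter (adjusted p = 0.000297). Of 11 laminin chains, 3 were higher and 3 lower, among them Lamc1, a chain of most laminins (2.02 ± 0.23, adjusted p = 7.33e-05), Lama4 (5.38 ± 1.44, adjusted p = 0.0149, with 7.01, 0.489 and 0.992 CPM in the 1% FCS LT Ctsd-/- replicates) and Lamb3 of laminin-332 (-2.59 ± 0.50, adjusted p = 0.00249). Lamb3 had 412 to 493 CPM in 1% FCS LT Ctsd+/+ cells and 40.0 to 99.1 CPM in 1% FCS Ctsd+/+ cells, so it moved in the direction of Itgb4.

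Of 5 hemidesmosome partners, 2 were higher and 1 lower. Dst, a plakin that joins Itgb4 to the cytoskeleton, was at 9.75, 11.6 and 11.3 CPM in 1% FCS LT Ctsd+/+ cells and 27.0 to 39.2 CPM in all other cells (1.67 ± 0.21, adjusted p = 0.000132), and thus moved against Itgb4. The tetraspanins Cd151 (0.85 ± 0.20, adjusted p = 0.00878) and Cd9 (-0.96 ± 0.22, adjusted p = 0.00625) went in opposite directions. Of 31 integrin adaptors and focal adhesion genes, 8 were higher and 6 lower, with a median of 0.50. Tns1 (4.88 ± 0.57, adjusted p = 8.47e-05) and Parvb (3.56 ± 0.34, adjusted p = 2.05e-05) were higher, and Tns4, a short tensin that lacks the actin-binding part, was lower (-2.82 ± 0.62, adjusted p = 0.00505). Parvb was at 5.78 to 12.0 CPM in 1% FCS LT Ctsd+/+ cells and at 85.8 to 144 CPM elsewhere. Of 12 other integrin subunits tested, 5 were higher and 4 lower. These included Itga1, a collagen receptor chain (5.39 ± 0.81, adjusted p = 0.000491), Itga2, another collagen receptor chain (-1.53 ± 0.45, adjusted p = 0.0249), and Itgb2, the beta chain of leukocyte integrins (-1.94 ± 0.51, adjusted p = 0.0142), which was at 43.6 to 82.1 CPM in Ctsd-/- and 0.990 to 15.2 CPM in Ctsd+/+ cells.

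In tumors, the integrin subunits of control and MMTV-cre;Ctsd-/- mice overlapped. By edgeR 0 of the 10 had an adjusted p below 0.05 (0.00537% of all genes did), by limma-voom 0 as well (0.0107% of all genes) and by DESeq2 1 (Itga7, adjusted p = 0.0228, beside 1.43% of all genes with an adjusted p), and at the unadjusted p of 0.1 that the study used for tumors 1 passed (16.7% of all genes), namely Itga7. At an unadjusted p of 0.05 the count was 1 as well (8.94% of all genes). Its CPM was 3.26, 9.62, 3.27 and 4.26 in control and 7.99, 8.09, 30.2 and 43.0 in Ctsd-/- tumors. The groups overlapped through the second control tumor, and 2 Ctsd-/- tumors were far above the rest. The log2 difference was 2.13 ± 0.61 (adjusted p = 0.416, and 0.0228 to 0.985 over the alternatives). Markers of other cell types varied between the tumors as well. The summed CPM of 7 adipocyte markers was 899.8, 3249, 532 and 5685 in control and 8181, 3396, 10726 and 23480.5 in Ctsd-/- tumors. With the mean log2 CPM of these markers as a covariate, the difference of Itga7 was 0.07 (adjusted p = 0.985). All 7 markers were higher in Ctsd-/- tumors (log2 differences 1.80 to 3.78, each with an unadjusted p below 0.1 by edgeR and 0 with an adjusted p below 0.05). The fit therefore cannot cleanly separate this covariate from the genotype. The 2 Ctsd-/- tumors with the highest Itga7 also had the highest summed CPM of 5 endothelial markers (234 and 224, against 60.8 and 94.02 in the other Ctsd-/- and 45.04 to 94.4 in control tumors) and of 10 mesenchymal markers (897 and 738, against 276 and 303, and 303 to 498 in control), and the part of these was not tested. The log2 differences of the 5 endothelial markers had a median of 1.22 (0.63 to 1.69, adjusted p = 0.521 to 0.598). Of these 5, 4 had an unadjusted p below 0.1 by edgeR, the threshold used above for the adipocyte markers. Summed skeletal muscle markers, at 3.60 to 967.5 CPM in control and 7.26 to 237.7 CPM in Ctsd-/- tumors, were highest in the control tumor with an Itga7 of 4.26 CPM. Mettl7b on the other strand had 33, 74, 15 and 45 counts in control and 2, 39, 164 and 304 in Ctsd-/- tumors, and since tumor libraries do not keep the strand (52.8% to 53.7% of gene reads in the opposite-strand form), overlapping reads of these genes cannot be told apart there.

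The epithelial members did not separate the tumors. Itgb4 was at 91.8, 100.04, 43.5 and 30.4 CPM in control and 59.2, 76.5, 86.9 and 55.8 CPM in Ctsd-/- tumors (0.07 ± 0.36, adjusted p = 0.962), Itga6 at 121 to 229.8 and 137 to 227 CPM (-0.10 ± 0.25, adjusted p = 0.899), and Itgb6 at 11.5 to 27.2 and 9.56 to 17.9 CPM (-0.39 ± 0.32, adjusted p = 0.692). Among mesenchymal members, Itga5 was at 21.7, 33.6, 15.2 and 13.3 CPM in control and 12.7, 20.7, 79.2 and 35.7 CPM in Ctsd-/- tumors, with the highest value in the third Ctsd-/- tumor (0.82 ± 0.52, adjusted p = 0.632, and 0.14 without that tumor, adjusted p = 0.96). Itgb3 was at 92.8, 62.4, 36.3 and 21.7 CPM in control and 42.1, 50.7, 35.8 and 28.4 CPM in Ctsd-/- tumors (-0.44 ± 0.40, adjusted p = 0.72). The fourth control tumor had the smallest tumor library (49725437 counts on genes) and the largest share of ambiguous reads (16.16% of mapped reads). Without it, Itgb3 was at -0.69 (unadjusted p = 0.0519 by edgeR, adjusted p = 0.786), Itga3 at -0.09 and Itgb4 at -0.17. Itgav (-0.26 ± 0.26, adjusted p = 0.749), Itgb1 (-0.14 ± 0.18, adjusted p = 0.81), Itga3 (0.14 ± 0.40, adjusted p = 0.912) and Itgb8 (-0.20 ± 0.23, adjusted p = 0.773) overlapped between the groups too, so that no member separated them (4.15% of all genes did). The median log2 difference was -0.12 over the members and 0.00073 over all genes. An LR code in the labels, whose meaning they do not give, differed between the tumor groups and was the same within each, so it and the genotype cannot be told apart.

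**Figure D5:**
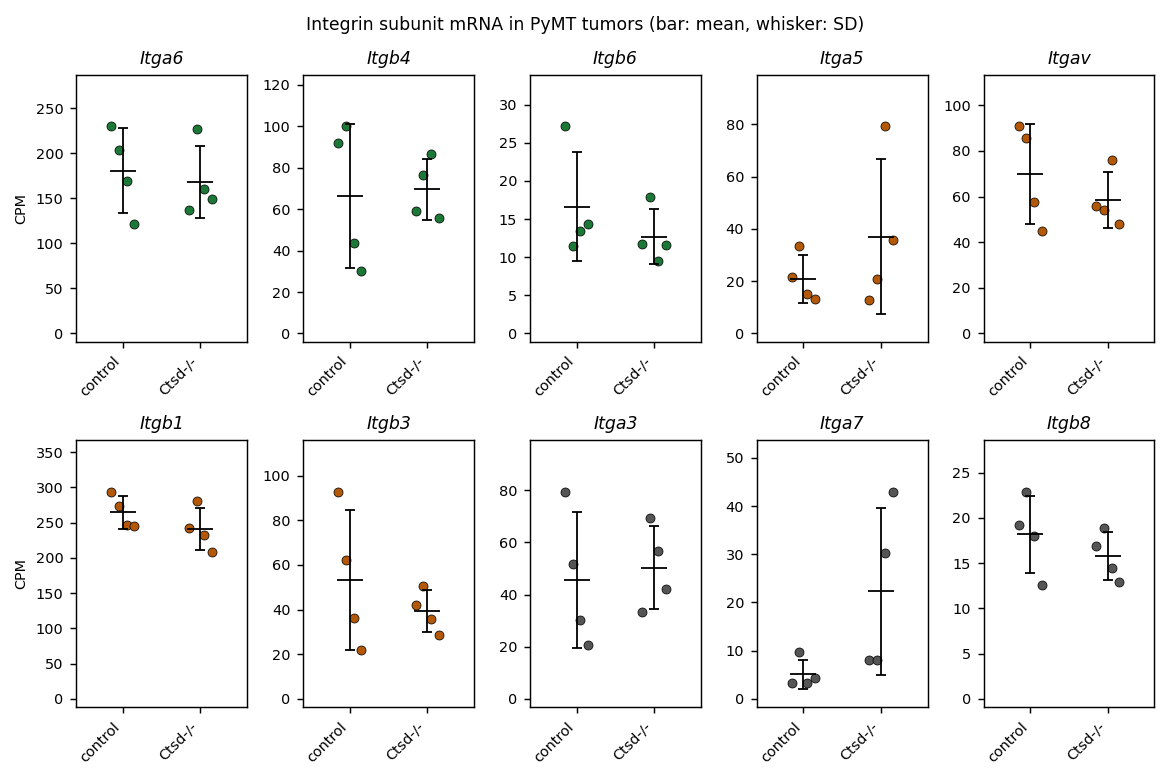
CPM of each integrin subunit in the 4 control and 4 MMTV-cre;Ctsd-/- tumors (points), with the mean (bar) and SD (whisker); y axes are linear and differ between genes. The groups overlap for every member, and 2 of the Ctsd-/- tumors lie at 30.2 and 43.0 CPM of Itga7.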

How the data were processed

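The deposited tables hold raw counts per gene, which the authors made with Trimmomatic and STAR on GRCm38 in 3 forms: regardless of strand, on the strand of the gene and on the opposite strand. Counts regardless of strand were used for tumors (unstranded by their strand shares) and opposite-strand counts for cells (97.1% to 97.3% of gene reads). Genes were named from Ensembl ids with GENCODE M21, with exon length as the union of exons. Lines of unmapped, multimapping (4.77% to 8.59% of mapped reads), no-feature and ambiguous reads (1.16% to 16.16%) were left out. Library sizes were scaled by TMM, and each material was fitted over all its groups with edgeR 4.0.16 (quasi-likelihood test, default filterByExpr filter), in place of the study's limma, with Benjamini-Hochberg adjustment; CPM has no pseudocount, log2 CPM for correlations a prior count of 2. Scripts were tested on simulated data. Alternatives were limma 3.58.1 (voom), DESeq2 1.42.0, other size factors and filters, the other strand form, a replicate block, an adipocyte covariate, samples of the most frequent LR code, only the groups compared, and omission of each replicate. Named genes were the members, up to 3 genes per partner list with the largest corrected log2 difference (adjusted p below 0.05, average log2 CPM above 1), and the genes most similar to each member; Itgb5, Mettl7b and the marker genes were named besides. The members and lists were chosen with earlier results of these data known.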

Additional observations from a re-analysis of the deposited data

Results flagged for a closer look

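Itga7 in the second control tumor (9.62 CPM) lay far from the other 3 control tumors (3.26 to 4.26 CPM), by a gap of 0.842 of the group's range; Dixon's test was run on 20 groups of 4, in which chance flags about 1 in 20.

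The genotype difference in cells differed between 1% FCS LT and 1% FCS for 7 members, by the interaction term of the fit. The fitted log2 differences of the differences were 2.58 for Itga5, 3.54 for Itga7, 1.69 for Itgav and 12.51 for Itgb3 (a fitted value that is no bound, since 1 group had 0 counts), and -0.95 for Itga6, -1.80 for Itgb4 and -2.63 for Itgb6. In all 7, the 1% FCS Ctsd+/+ libraries with their summed mesenchymal markers of 3779 to 4238 CPM enter the value, and the part of those markers was not tested.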

How the results depend on the processing

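Each genotype of cells is 1 line, and replicates number 3 or 4 a group. With limma-voom, or with DESeq2 size factors in edgeR, all 60 member differences kept their direction and their side of the threshold. In tumors, the count of higher members at an unadjusted p below 0.1 was 1, 2 without a filter on low counts, 0 with the adipocyte covariate and 1 to 2 when a replicate was left out, and that of lower members was 0 and then 0 to 2. Over all genes, 1572 of 18617 were higher and 1540 lower at that p in the main fit. Higher genes numbered 2703 of 34110 without a filter and 922 of 18617 with the covariate. When a replicate was left out, 980 to 2156 were higher and 827 to 2309 lower, of 19002 to 19231 genes. With the adipocyte covariate, differences turned to -0.26 (Itga5), 0.28 (Itga6), 0.055 (Itgb1), 0.27 (Itgb3), 0.12 (Itgb6) and 0.14 (Itgb8). The count of members that fell with time in Ctsd-/- cells was 1, and 2 with DESeq2 or without a filter (Itgb6 with Itga7), 0 with at least 10 counts in every sample, with the replicate block or with samples of the most frequent LR code, and 0 to 1 when a replicate was left out. The count over all genes changed too. It was 123 of 15178 in the main fit, 413 of 15178 with DESeq2 and 188 of 27376 without a filter. In the 3 settings with 0 members it was 94 of 12171, 143 of 15178 and 241 of 15166. Omitting a replicate gave 26 to 120 of 15555 to 15608. With counts regardless of strand, Itga7 in 1% FCS LT turned to 0.13. With the most frequent LR code alone, Itgb4 in 1% FCS was at 0.50 and passed the test (adjusted p = 0.0154 by edgeR), the step in Ctsd-/- cells turned to 0.016 for Itgav and 0.67 for Itgb8, and the corrected comparison to 0.080 for Itga3 and 0.13 for Itgb8. Omitting a replicate turned values near 0: Itga3 (-0.089 to 0.56), Itga6 (-0.28 to 0.036) and Itgb4 (-0.17 to 0.33) in tumors, Itgb1 in 1% FCS (-0.053 to 0.37), Itga5 (-0.041 to 0.068), Itgb3 (-0.83 to 0.081) and Itgb8 (-0.60 to 0.49) with time in Ctsd-/- cells, Itga3 (-0.21 to 0.084) and Itgb8 (-0.21 to 0.47) with time in Ctsd+/+ cells, and Itga3 (-0.21 to 0.089), Itgb1 (-0.039 to 0.36) and Itgb8 (-0.71 to 0.38) in the corrected comparison. The causes were not tested. Itga5 in tumors ranged from 0.14 to 1.15 over 8 omissions and passed an unadjusted p of 0.1 in 3 of them (0.0389 to 0.0924 by edgeR).

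Replicate numbers are shared across groups, but same-numbered samples did not deviate together in every pair (lowest r -0.303 in tumors and -0.295 in cells). Some cell groups did so: between the 1% FCS genotypes the mean r was 0.254 for same-numbered and -0.126 for other samples. The first replicates of both 1% FCS groups share an LR code, as do the third replicates of both 1% FCS LT groups. The main fit did not pair the samples. With the number as a block, Itgb6 with time in Ctsd-/- cells was at -0.96 (adjusted p = 0.0534 by edgeR), and no other member changed its call. At these depths, Itgb3 in 1% FCS LT Ctsd+/+ cells could not be seen below 0.0811 CPM.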
